A study of Drosophila melanogaster with 22 samples.

Results

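Calmodulin and the protein kinases that it switches on were followed in the heads of female flies through 3 genes, CaMKI (FBgn0016126), CaMKII (FBgn0264607) and Cam (FBgn0000253), of 17101 genes in the deposited count tables. They were chosen by name, together with the stretch of chromosome 4 within 1000 bases of position 450443 on the strand of CaMKI. Earlier results of these data were known when they were chosen, so the signal at that position is described here without a test. The question was how the counts of the 3 genes and the reverse transcription stops along CaMKI differ between flies that lack RluA-2, a pseudouridine synthase, and their genetic background.

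Exp 2 holds 4 RluA-2 samples, homozygous for a deletion of the RluA-2 locus (RluA-2 del-FRT), and 4 samples of the isogenic w1118 strain that served as control, and Exp 1 holds 3 w1118 samples. Every sample was made of 100 heads of virgin females aged 1 day, so that the RNA of each sample is an average over pooled animals, and the deletion was studied in 1 line. The RNA of each sample was split, and one portion was treated with CMC, a carbodiimide that stays on pseudouridine and stops reverse transcription next to it, while the other was mock treated. This gave 11 pairs and 22 libraries. Read pairs counted per gene, as the authors deposited them, summed to 12035142 to 30701799 per library. CMC terminations within the RluA-2 gene numbered 0.604 to 1.91 per 1000000 gene counts in the RluA-2 libraries, against 5.12 to 7.53 in the w1118 libraries of Exp 2. The single pseudouridine of the spiked-in control RNA stood out in all 11 pairs, with a log2 ratio of CMC to mock termination of 6.25 to 6.90. Neuronal genes (elav, nSyb, brp, Syt1, para) were detected in every CMC library of Exp 2, and the testis genes bam and can had at most 0.235 and 0.144 terminations per 1000000 gene counts. Acam, another testis gene, was listed at 0 throughout, but so was the glial gene alrm, so a listed 0 does not show that a gene is absent.

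Calmodulin is a small calcium sensor. When calcium enters a cell it binds the EF-hand loops of calmodulin, which then wraps around short helices in its targets and activates them. CaMKI and CaMKII are serine/threonine kinases that are held inactive by their own regulatory segment until calcium-bound calmodulin releases it. CaMKII forms large assemblies that can phosphorylate themselves and stay active after calcium has fallen, and in flies it is abundant in neurons, where it is needed for courtship memory and for the growth and strength of synapses. CaMKI acts in a cascade below a kinase of its own and has been linked to the growth of neurites in mammals. Pseudouridine is an isomer of uridine that is made in the finished RNA chain by pseudouridine synthases, one of which is encoded by RluA-2.

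The 3 genes lie on 2 chromosomes (release 6 coordinates of the RefSeq gene table). CaMKI spans 445504 to 453947 of chromosome 4 on the forward strand, CaMKII spans 1035288 to 1053703 of chromosome 4 on the reverse strand, and Cam spans 12259398 to 12278809 of chromosome arm 2R on the forward strand. The strand was read from the terminations themselves, of which at least 99.993% in each span lay on one strand. All 3 genes passed the filter on low counts in every fit.

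CaMKI had more counts in RluA-2 heads than in w1118 heads of the same experiment. In the mock libraries, replicates 1 to 4 of RluA-2 had 307, 336, 312 and 337 counts per 1000000 gene counts (CPM), against 274, 271, 244 and 254 CPM in w1118 of Exp 2. The means were 323 ± 15.7 CPM in RluA-2 and 260 ± 14.4 CPM in w1118 (SD, n = 4 each), and every RluA-2 library lay above every w1118 library. The CMC libraries of the same RNA samples gave 322, 349, 301 and 346 CPM in RluA-2, against 268, 295, 235 and 238 CPM in w1118. Here too the groups did not overlap, with means of 330 ± 22.6 CPM in RluA-2 and 259 ± 28.0 CPM in w1118 (SD, n = 4 each). The share of all genes whose groups lie apart in this way is not given here, so nothing is read from the lack of overlap. The fitted log2 fold change, RluA-2 over w1118, was 0.35 (SE 0.054) in the mock libraries, a fold of 1.27, and 0.36 (SE 0.077) in the CMC libraries.

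CaMKII did not pass the threshold between the genotypes. Its mock libraries had 282, 281, 308 and 294 CPM in RluA-2, against 343, 326, 295 and 297 CPM in w1118 of Exp 2. The lower w1118 values fell within the RluA-2 range, and the log2 fold change of -0.08 (SE 0.058) did not pass the threshold (edgeR, adjusted p = 0.398), with a 95% interval of -0.19 to 0.04. In the CMC libraries the values were 308, 298, 268 and 312 CPM in RluA-2, against 340, 382, 291 and 287 CPM in w1118, a log2 fold change of -0.12 (SE 0.089, edgeR, adjusted p = 0.416).

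Cam, which carries the calcium signal to both kinases, did not pass the threshold between the genotypes. The mock libraries had 1583, 1690, 1707 and 1658 CPM in RluA-2, against 1662, 1664, 1598 and 1545 CPM in w1118 of Exp 2. The log2 fold change was 0.08 (SE 0.048, edgeR, adjusted p = 0.285), with a 95% interval of -0.02 to 0.17. In the CMC libraries Cam had 2392, 2221, 2460 and 2050 CPM in RluA-2 and 2331, 2336, 2001 and 2012 CPM in w1118, a log2 fold change of 0.09 (SE 0.082, edgeR, adjusted p = 0.518).

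In the mock libraries, 1 of the 3 genes, CaMKI, passed an adjusted p of 0.05, and 23.7% of all 10161 genes tested passed it. Of all genes tested, 11.1% passed and were higher in RluA-2. In the CMC libraries CaMKI passed again, against a background of 21.1% of 10050 genes, with 8.8% of all genes passing and higher in RluA-2. Because CaMKI was chosen with this contrast known, nothing is read from its count. The CMC and mock libraries come from the same RNA samples, so they are not separate tests of the genotype. The genotype difference differed between the CMC and the mock libraries by a log2 of 0.02 for CaMKI, -0.03 for CaMKII and 0.02 for Cam, with standard errors of 0.049, 0.067 and 0.062 in that order. Fewer cells of a type and less RNA per cell cannot be told apart in RNA from whole heads.

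**Figure D1:**
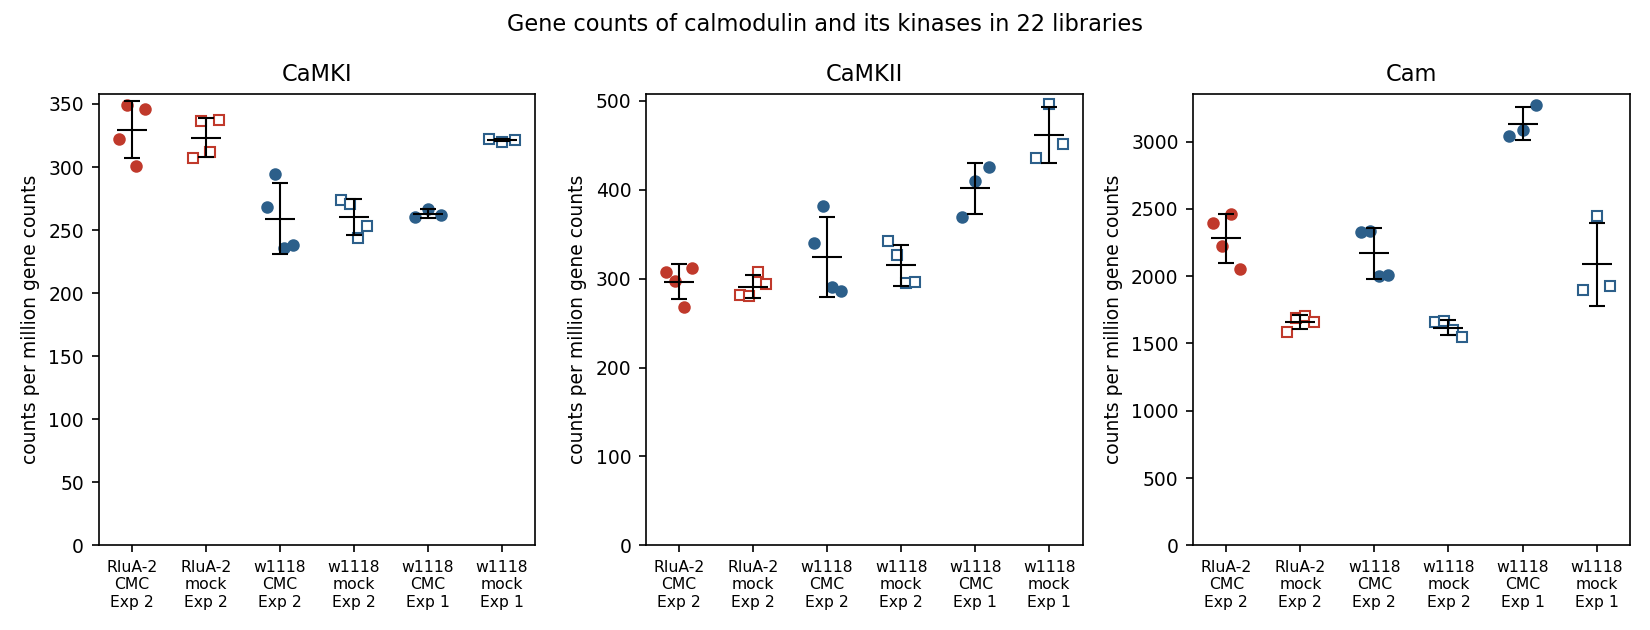
Counts per 1000000 gene counts of CaMKI, CaMKII and Cam in each of 22 libraries, by genotype, treatment and experiment (filled circles CMC, open squares mock, black bars mean ± SD). The RluA-2 libraries of CaMKI sit between 301 and 349 CPM, above all w1118 libraries of Exp 2, and the Exp 1 mock libraries sit at 320 to 322 CPM.

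The w1118 libraries of Exp 1, which had no RluA-2 partner, set a second scale for these differences. CaMKI had 274, 271, 244 and 254 CPM in the w1118 mock libraries of Exp 2, against 322, 320 and 322 CPM in those of Exp 1, which lie within the range of the RluA-2 mock libraries. The log2 fold change, Exp 2 over Exp 1, was -0.34 (SE 0.061, edgeR, adjusted p = 0.00259), which is about the size of the genotype difference within Exp 2. CaMKII had the values above in Exp 2, against 436, 497 and 452 CPM in Exp 1, a log2 fold change of -0.59 (SE 0.077, edgeR, adjusted p = 4.9e-04). Cam had at most 1664 CPM in the w1118 mock libraries of Exp 2, against 1897, 2444 and 1927 CPM in those of Exp 1, and gave -0.41 (SE 0.097, edgeR, adjusted p = 0.0102). All 3 genes thus passed in this comparison of one genotype with itself, in which 32.8% of 10253 genes passed. Only w1118 was sampled in both experiments, and the RluA-2 values have no second experiment to stand beside.

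Treatment with CMC moved Cam and left the kinases nearer to their mock values. In all 11 pairs Cam had more CPM in the CMC library than in the mock library of the same sample. In Exp 1 the CMC libraries had 3042, 3086 and 3271 CPM against 1897, 2444 and 1927 CPM with mock treatment. Over the 14 w1118 libraries, with experiment as a covariate, the log2 fold change of CMC over mock was 0.48 (SE 0.068, edgeR, adjusted p = 1.9e-04), where 32.1% of 10043 genes passed. It was 0.42 within Exp 2 and 0.57 within Exp 1, past the threshold in both. Per pair, the log2 ratio for Cam was 0.31 to 0.60 in RluA-2, against 0.32 to 0.49 in w1118 of Exp 2.

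CaMKI behaved differently in the 2 experiments under CMC. In w1118 of Exp 2 the log2 fold change of CMC over mock was -0.01 (edgeR, adjusted p = 0.939). In Exp 1 its CMC libraries had 260, 267 and 262 CPM and its mock libraries 322, 320 and 322 CPM, a log2 fold change of -0.30 (edgeR, adjusted p = 0.0312). The difference between these, Exp 2 minus Exp 1, was 0.27 (SE 0.069) and passed the threshold with the pairs as a block (edgeR, adjusted p = 0.0408), as did 9.14% of 10410 genes. Over both experiments the log2 fold change was -0.14 (SE 0.063, edgeR, adjusted p = 0.098), and without w1118 replicate 2 of Exp 2 it was -0.19 and passed (edgeR, adjusted p = 0.027). For CaMKII the log2 fold change of CMC over mock was -0.07 (SE 0.073, edgeR, adjusted p = 0.465), with CPM lower in the CMC library in 7 of 11 pairs.

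Put in order of their group means, the levels of CaMKI fell into an upper and a lower set. RluA-2 CMC (330 CPM), RluA-2 mock (323 CPM) and Exp 1 w1118 mock (321 CPM) overlapped with each other. Exp 1 w1118 CMC (263 CPM), Exp 2 w1118 mock (260 CPM) and Exp 2 w1118 CMC (259 CPM) overlapped as well, and the highest library of this set, at 295 CPM, lay below the lowest of the other, at 301 CPM. CaMKII was highest in Exp 1 w1118 mock (462 ± 31.6 CPM) and CMC (402 ± 28.8 CPM, SD, n = 3 each), whose ranges did not overlap, followed by the 4 groups of Exp 2 between 291 and 325 CPM, each overlapping its neighbour. For Cam the order was Exp 1 w1118 CMC (3133 ± 121 CPM, SD, n = 3), RluA-2 CMC (2281 CPM), Exp 2 w1118 CMC (2170 CPM), Exp 1 w1118 mock (2089 CPM), RluA-2 mock (1659 CPM) and Exp 2 w1118 mock (1617 CPM). Only Exp 1 CMC stood clear of its neighbour at the top, and the 2 mock groups of Exp 2 stood below the rest. The sets of CaMKI were drawn after its means were ordered. The share of all genes with gaps like these is not given, so nothing is read from the gaps of any gene here. No level of one gene is set against that of another, since transcript lengths were not used here.

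**Figure D2:**
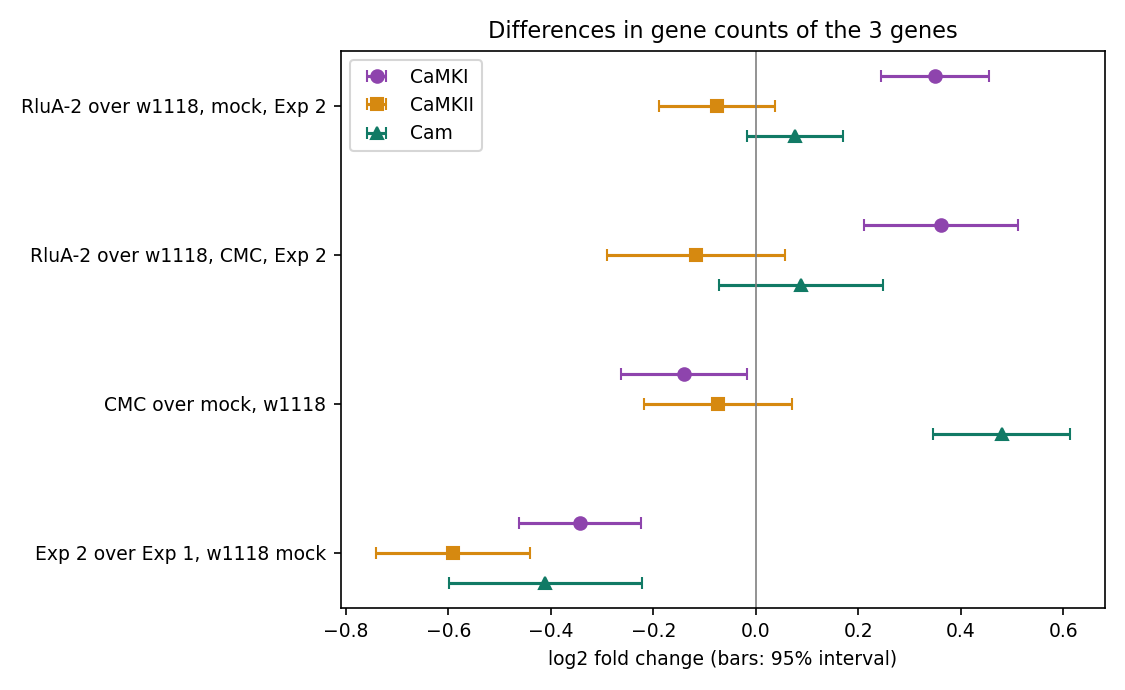
Fitted log2 fold changes of CaMKI, CaMKII and Cam (points) with 95% intervals (bars) in 4 comparisons, each given as the first-named group over the second. CaMKI lies right of 0 in both genotype comparisons, all 3 genes lie left of 0 for Exp 2 over Exp 1, and Cam lies right of 0 for CMC over mock.

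Within CaMKI, the position of interest is base 450443 of chromosome 4, 4939 bases from the start of the gene span and 3504 from its end. A CMC adduct stops reverse transcription 1 base before it is copied, so the reads end at 450444. The same offset placed the stop of the spiked-in RNA at its position 44, next to the pseudouridine at 43. The identity of the base, and whether it lies in an exon or an untranslated region, were not read here, because no genome sequence or transcript model of this build was used.

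At this stop, few CMC inserts ended in RluA-2 heads and many did in w1118 heads. In RluA-2 replicates 1 to 4, 13 of 161, 14 of 186, 11 of 162 and 11 of 224 covering inserts terminated, shares of 8.07, 7.53, 6.79 and 4.91%. In w1118 of Exp 2, 38 of 83, 51 of 128, 38 of 93 and 28 of 105 terminated, shares of 45.8, 39.8, 40.9 and 26.7%. In w1118 of Exp 1, 8 of 61, 15 of 48 and 15 of 45 terminated, shares of 13.1, 31.2 and 33.3%. Every RluA-2 share was below every w1118 share of both experiments. The closest values were 8.07% in RluA-2 replicate 1, with a Wilson interval of 4.78 to 13.3%, and 13.1% in w1118 replicate 1 of Exp 1, with an interval of 6.80 to 23.8%, and these intervals overlap. The intervals are at 95%. They leave out everything but counting error, as copies made by PCR are not separate molecules.

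Mock libraries gave the background at the same stop. It was 3.00, 1.92, 2.33 and 1.94% of 267, 156, 257 and 258 covering inserts in RluA-2, and 0.647, 2.46, 0.901 and 1.97% of 309, 203, 111 and 203 in w1118 of Exp 2. In Exp 1 the mock shares were 1.92, 1.28 and 0%, the last being 0 of 126 inserts with an upper limit of 2.96%. The mock shares of the genotypes overlapped, and in each of the 11 pairs the CMC share was above the mock share. The log2 ratio of CMC to mock termination, with 0.5 added to terminations and 1 to coverage, averaged 1.49 ± 0.23 in RluA-2 and 4.56 ± 1.02 in w1118 of Exp 2 (SD, n = 4 each), a difference of -3.08 (SE 0.61). In Exp 1 it averaged 4.48 ± 1.86 (SD, n = 3).

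**Figure D3:**
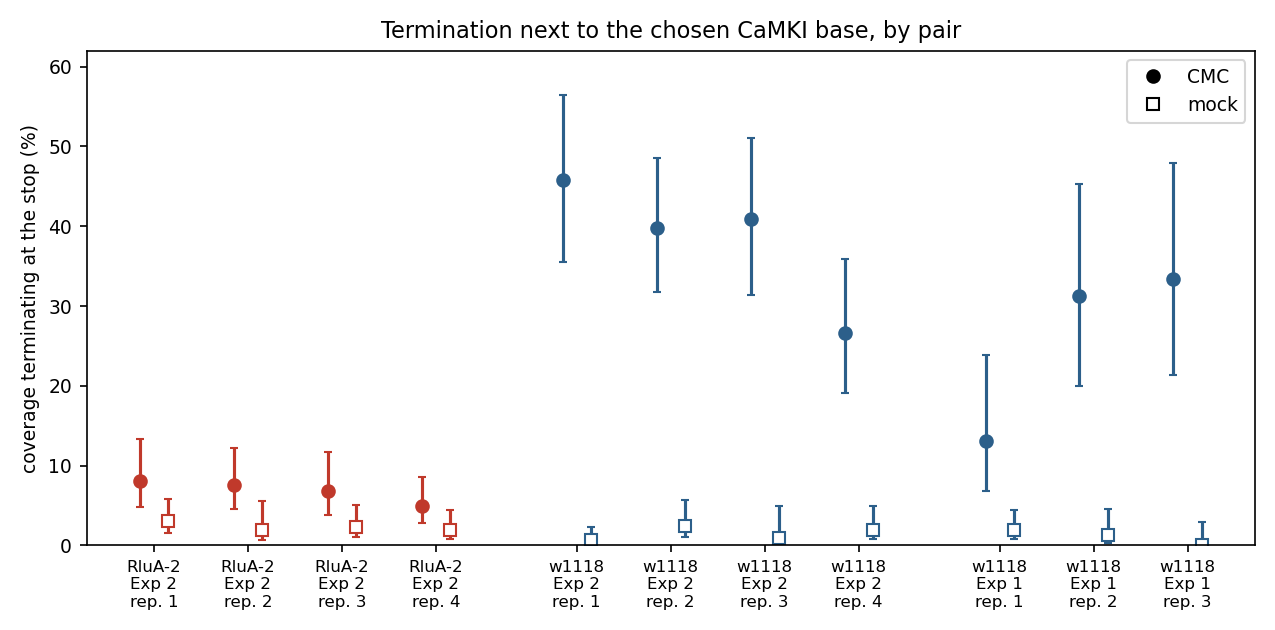
Share of covering inserts that terminated at the CaMKI stop in each pair (filled circles CMC, open squares mock), with 95% Wilson intervals as bars. CMC shares were 4.91 to 8.07% in RluA-2, 26.7 to 45.8% in w1118 of Exp 2 and 13.1 to 33.3% in w1118 of Exp 1, and no mock share exceeded 3.00%.

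The stops also showed as a step in CMC coverage. Reverse transcription runs toward the 5′ end of the RNA, so inserts that end at the stop no longer cover the base beyond it. Coverage at the base was 93.8 to 96.0% of that at the stop in the 4 RluA-2 CMC libraries, against 55.4 to 74.3% in the 4 w1118 CMC libraries of Exp 2. In the mock libraries the same step was 98.1 to 100% in RluA-2 and 97.5 to 104% in w1118. The step is built from the same inserts as the termination shares and is no separate evidence. CMC coverage at the stop was 161 to 224 inserts in RluA-2 and 83 to 128 in w1118 of Exp 2, so the RluA-2 CMC libraries were the more deeply read there. Mock coverage overlapped, at 156 to 267 inserts in RluA-2 and 111 to 309 in w1118 of Exp 2.

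The site test set the CMC against the mock ratio within a pair, one-sided, with p(1 - p) over the CMC coverage plus 1 over the mock coverage as variance, where p is the pooled ratio. This is stricter than the pooled variance of the study's methods. By it the stop was called in 0 of 4 RluA-2 pairs, 3 of 4 w1118 pairs of Exp 2 and 2 of 3 of Exp 1. The share of all tested positions that were called was 0.445, 0.219, 0.324 and 0.257% in RluA-2 replicates 1 to 4, 0.536, 0.304, 0.279 and 0.346% in w1118 of Exp 2, and 0.527, 1.13 and 0.859% in Exp 1. The pairs not called were replicate 4 of Exp 2 and replicate 1 of Exp 1, the w1118 pairs with the lowest CMC shares of their experiments. With the stricter variance, 443 to 519 positions were tested in an RluA-2 pair over the whole CaMKI span and 207 to 454 in a w1118 pair, and no other position was called in any of them. With the pooled variance the stop was called in 1 of 4 RluA-2 pairs, 4 of 4 w1118 pairs of Exp 2 and 3 of 3 of Exp 1. At other positions of the window 211 calls were made over the 11 pairs. Over the genome this variance called 231423 of 631531 tested positions in RluA-2 replicate 1 and 44196 of 639308 in replicate 2. In w1118 it called 39434 of 490046 in replicate 3 of Exp 2 and 199884 of 391012 in replicate 2 of Exp 1. A call by it is thus common and its rate differs between pairs. The calls at the stop rest on the same values as the choice of the position and are a description of it.

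Along the 1000 bases to either side, the stop had the highest mean CMC share in w1118. Positions were ranked if listed in every pair of a group, with at least 20 covering inserts in both libraries. A covered position without a CMC termination in some pair is thus left out of the ranks and medians. The stop ranked 1 of 224 by mean CMC share in w1118 of Exp 2 and 1 of 156 in Exp 1. In RluA-2 it ranked 5 of 296, and by the log2 ratio of CMC to mock it ranked 47 of 296. The median CMC share of the other positions was 1.53% in RluA-2 and 1.71% in w1118 of Exp 2. The next highest CMC share in the window was at 451257, 813 bases 3′ of the stop, with 10.6 to 15.6% in RluA-2 and 9.17 to 18% in w1118 of Exp 2. There the mock libraries also terminated, at 6.69 to 11.8% in RluA-2 and 6.32 to 12.9% in w1118. In Exp 1 this position had CMC shares of 3.92 to 29.0%, which overlapped the 13.1 to 33.3% of the stop.

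**Figure D4:**
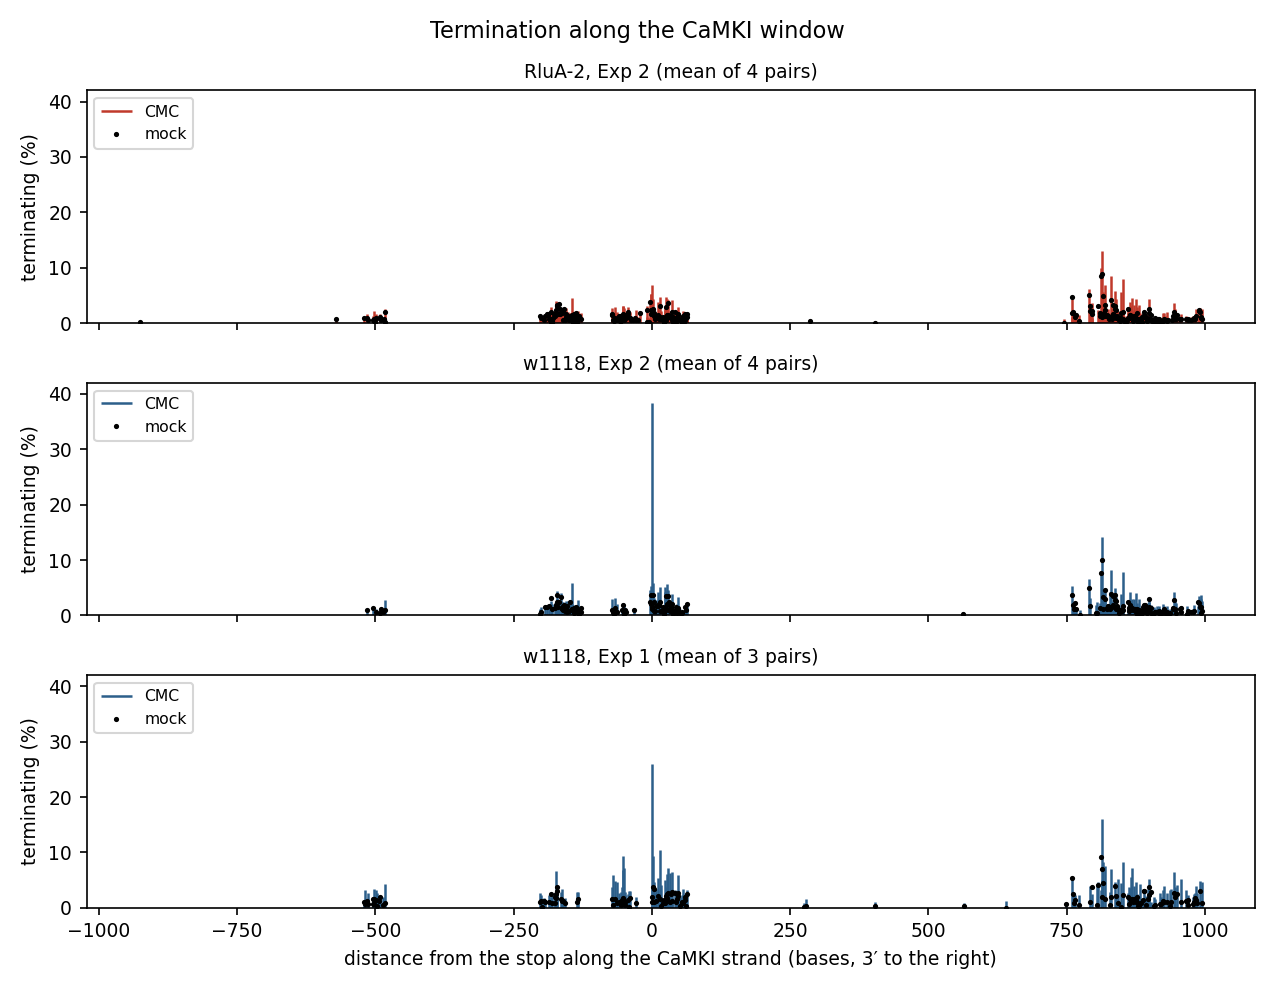
Mean share of covering inserts that terminated at each position within 1000 bases of the CaMKI stop (lines CMC, dots mock), by distance from the stop. Positions shown were listed in every pair of the group and covered by at least 20 inserts in both libraries. The line at 0 reaches 38.3% in w1118 of Exp 2, 25.9% in w1118 of Exp 1 and 6.83% in RluA-2, and empty stretches had too few inserts or unlisted positions.

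The other positions of the window were compared between the genotypes as well. They lie in the stretch named at the choice, so they are no independent measure. With limma on the log2 ratio of CMC to mock termination, fitted over 883444 positions of the genome, 180 of them in this window, 0 of these 180 and 0 of all positions passed after adjustment. At an unadjusted p of 0.05, 9 of the 180 passed, or 5%, against 5.31% of all positions. The median difference over the 180 was -0.06 and the range -2.11 to 2.54, beside the -3.08 of the chosen stop. Over the whole CaMKI span, 657 other positions were tested and 0 passed, and the lowest difference among them was -2.96. Over the genome 52 positions were lower than the chosen stop. The stop was chosen with its signal known, so its place among these positions is a description.

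Outside the base and its neighbours, the window held 78.5, 85.8, 76.4 and 84.3 CMC terminations per 1000000 gene counts in RluA-2, against 66.5, 72.8, 60.7 and 58.9 in w1118 of Exp 2. These groups did not overlap, as for the gene counts of CaMKI, of which the window is a part, and nothing is read from this. Per 1000 CaMKI gene counts the window held 247 ± 4.92 in RluA-2 and 250 ± 5.27 in w1118 (SD, n = 4 each), a difference of -3.15. Both the window and the CaMKI counts were part of the choice, so this difference is given without a test. The stop alone took 0.615 to 0.832% of the CMC terminations of the window in RluA-2, against 2.32 to 3.72% in w1118 of Exp 2.

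CaMKII and Cam served for comparison. In CaMKII, 314 to 690 positions were tested in a pair and 0 were called by the site test. In Cam, which is read far more often, 16 positions were called at least once, with 5 calls in 2 of 4 RluA-2 pairs, 3 calls in 2 of 4 w1118 pairs of Exp 2 and 17 calls in the 3 pairs of Exp 1. At least 1003 positions of Cam were tested in an RluA-2 pair, and 813 to 1315 in a w1118 pair of Exp 2. Of the 17 calls of Exp 1, replicate 2 had 13, with 1056 positions tested. Replicate 1 had 1 call of 1046 tested and replicate 3 had 3 of 1201. Over the genome, 0.527, 1.13 and 0.859% of tested positions were called in replicates 1 to 3 of Exp 1. In the pairs of Exp 2 this share was 0.219 to 0.536%. Whether calls in CaMKII or Cam differ from these shares was not tested. Of the 16 positions, 3 were called in w1118 pairs of both experiments, with stops at 12264749, 12264754 and 12264859 of 2R. These 3 were picked out after their values were seen.

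At 12264859 of Cam, with 1664 to 3069 CMC inserts per pair, the shares of the genotypes overlapped. They were 9.22 to 11.2% in RluA-2, 9.60 to 11.7% in w1118 of Exp 2 and 7.85 to 13.9% in Exp 1, against mock shares of 3.31 to 4.73%, 3.82 to 4.06% and 3.79 to 4.37% in the same order. The log2 ratio of CMC to mock was 1.26 ± 0.35 in RluA-2 and 1.39 ± 0.09 in w1118 (SD, n = 4 each), a difference of -0.13 (SE 0.46). The 3 positions were taken by their calls in w1118 pairs, some of them compared here, so the genotype differences at them are given without a test. At 12264749 the difference was 0.36 (SE 0.69) and at 12264754 it was -0.04 (SE 0.59), and CMC shares at these stops ran from 12.2 to 21.6% and 11.3 to 23.6% in RluA-2, against 8.79 to 28.2% and 10.5 to 21.6% in w1118 of Exp 2. Over the 1590 tested positions of Cam and 727 of CaMKII, 0 passed with limma, and 3.14 and 6.05% had an unadjusted p under 0.05.

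Other genes of calcium signalling were read from fixed lists. Their symbols could not be paired with the identifiers of the count tables, so they were measured by CMC terminations within the gene span, per 1000000 gene counts. Measured in this way CaMKI had a log2 fold change of 0.34 (SE 0.074), and the spans of CaMKI, CaMKII and Cam held 0.95 to 0.994, 1.15 to 1.29 and 0.831 to 0.850 terminations per gene count. Across the 5 lists, 50 of 52 genes were tested, and 6 of them, 12%, passed in the comparison of the genotypes, against 21.2% of 9478 gene spans. Of the 6, 2 were higher in RluA-2, as were 9.13% of all spans.

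Of the 18 proteins that calmodulin binds or regulates, 1 was higher and 1 was lower in RluA-2. Nos, the nitric oxide synthase that calmodulin activates, had 40.0 ± 2.38 terminations per 1000000 in RluA-2 and 34.1 ± 0.94 in w1118 (SD, n = 4 each), a log2 fold change of 0.25 (SE 0.057, edgeR, adjusted p = 0.0036). Pde1c, a calmodulin-stimulated phosphodiesterase, had 194 ± 5.31 in RluA-2 and 226 ± 18.5 in w1118, a log2 fold change of -0.20 (SE 0.062, edgeR, adjusted p = 0.030). The calcineurin genes CanA1, CanA-14F, Pp2B-14D, CanB and CanB2 did not pass, with log2 fold changes of -0.19, 0.04, 0.04, 0.07 and -0.06 in that order. Neither did rut, the adenylate cyclase that calmodulin stimulates, at 0.01 (SE 0.059). The list's median log2 fold change was -0.05, beside 0.01 for all spans.

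Among 12 channels, pumps and store proteins that move calcium, Ca-alpha1T, a T-type voltage-gated calcium channel, had 517 ± 20.5 terminations per 1000000 in RluA-2 and 360 ± 10.6 in w1118 (SD, n = 4 each). Its log2 fold change of 0.55 (SE 0.056, edgeR, adjusted p = 1.8e-06) was the highest in the 5 lists. RyR, the ryanodine receptor that releases calcium from the endoplasmic reticulum, was lower, at 346 ± 15.5 in RluA-2 and 406 ± 12.2 in w1118, a log2 fold change of -0.21 (SE 0.058, edgeR, adjusted p = 0.0157). The SERCA pump, at 0.05 (SE 0.067), and the plasma membrane pump PMCA, at -0.02 (SE 0.079), did not pass. The median of the list was -0.01.

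Of 9 EF-hand calcium sensors other than calmodulin, 8 were tested and 1 passed. This was TpnC73F, a muscle troponin C, with 5.35 ± 0.44 terminations per 1000000 in RluA-2 and 8.43 ± 1.26 in w1118 (SD, n = 4 each) and a log2 fold change of -0.63 (SE 0.118, edgeR, adjusted p = 8.1e-04). The frequenins Frq1 and Frq2, neuronal calcium sensors that act at synapses, were at 0.01 and 0.02 and did not pass. Of the kinase substrates and partners in neurons, Syn, the synaptic vesicle protein synapsin, was lower, with 309 ± 21.6 in RluA-2 and 371 ± 8.34 in w1118 and a log2 fold change of -0.24 (SE 0.061, edgeR, adjusted p = 0.0096). The others tested were dlg1, CrebB, Syt1 and brp, between -0.02 and 0.10, none of which passed. The translation regulator orb2 had too few listed terminations to be tested.

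None of the 9 kinases related to the CaMKs by sequence or family passed, and none had an unadjusted p under 0.05 with edgeR. They included CASK, with a log2 fold change of -0.08 (SE 0.055), and AMPKalpha, the catalytic subunit of the energy-sensing kinase, at 0.07 (SE 0.055). CASK carries a CaMK-like domain and is known in flies as a partner of CaMKII. The median of the list was 0.02.

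**Figure D5:**
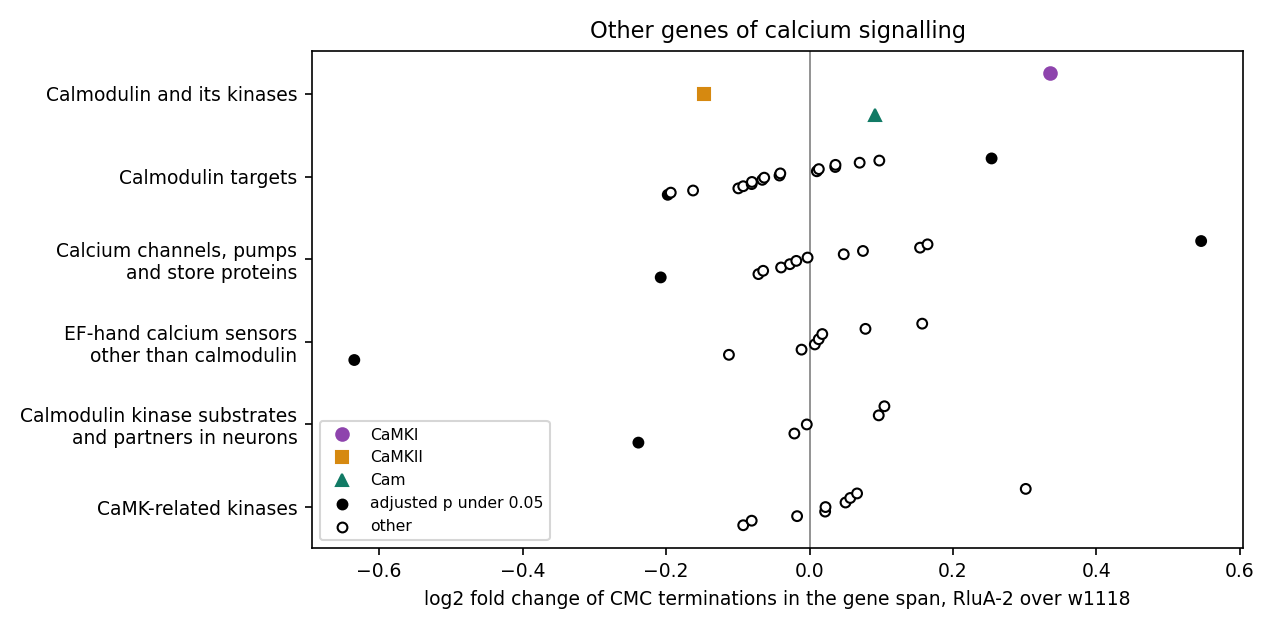
Log2 fold change of CMC terminations in the gene span, RluA-2 over w1118 of Exp 2, for the 3 genes in the top row and 5 lists of calcium signalling genes below, 1 point per gene (filled, edgeR adjusted p under 0.05). Ca-alpha1T lies farthest right at 0.55 and TpnC73F farthest left at -0.63, and the other points of the lists lie between -0.24 and 0.30.

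Cell type markers were measured in the same way. Of all 9478 gene spans tested, 9.13% passed and were higher in RluA-2, and 12.0% passed and were lower. Whether the counts of markers that passed differ from these shares was not tested. Of 5 neuronal markers 0 passed, nor did any with an unadjusted p under 0.05 (edgeR), and their summed level was 2405 to 2630 per 1000000 in RluA-2 and 2268 to 2674 in w1118 of Exp 2. None of the 5 muscle markers passed, adjusted or not. Of 5 photoreceptor markers, 3 were lower, Rh3, Rh4 and Arr2, with log2 fold changes of -0.47, -0.37 and -0.20, while the sums overlapped at 19966 to 21986 in RluA-2 and 20214 to 22992 in w1118. Of 5 fat body markers 2 were lower, and the list's median log2 fold change was 0.17. They ranged in sum from 55516 to 70146 in RluA-2 and from 52290 to 59765 in w1118, with the storage protein Lsp2 at a log2 fold change of -1.55 and Fbp1 at -2.43. The yolk protein genes Yp1, Yp2 and Yp3 had 0.22, 0.18 and 0.17 and did not pass. Lsp2 had 686 to 1132 per 1000000 in RluA-2 and 2415 to 2701 in w1118 of Exp 2, and 498 to 794 in w1118 of Exp 1. Of the glial markers repo was higher at 0.17 and moody lower at -0.21. The haemocyte marker NimC1 was higher at 0.69, and the summed haemocyte level was 150 to 160 in RluA-2 and 151 to 173 in w1118. The part of these markers in the CaMKI difference was not tested.

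The genes most like each member across the 11 CMC libraries were found among 6773 genes with at least 10 terminations per 1000000. CaMKI was followed most closely by Nubpl, CG14777 and Prp39, with Pearson's r of 0.92, 0.91 and 0.91 between log2 levels. For CaMKII these were Cals, ITP and CG11155, with r of 0.98, 0.98 and 0.97, and Cals and CG11155 lie on chromosome 4 as CaMKII does. For Cam they were CG32176, Sap30 and Sox21b, each with r of 0.98. An r above 0.8 was reached by 68 genes with CaMKI, 302 with CaMKII and 703 with Cam. All values share the same libraries and their depths, and r over 11 libraries of 3 groups is a description.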

How the data were processed

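Psi-seq data of 22 libraries (11 CMC and mock pairs) were analysed. Per the submitters' processing notes and the study's methods, Trimmomatic 0.33 trimmed the reads, which the authors mapped first to rRNA and spike-in (Bowtie2) and then genome-wide (STAR 2.6.1a). The deposited gene counts are raw and come from featureCounts 2.0.0. The deposited termination files list, per position, a termination count, the coverage (a signal) and their quotient, the termination ratio, as a fraction. Because their lowest values are 2 in CMC and 1 in mock libraries, terminations and coverage were taken to be the count plus 1, which no source states, and 1 was subtracted for every share printed. A position is listed where the CMC library has a termination.

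The 3 genes and all gene lists were chosen with earlier results of these data known. The test of gene counts was edgeR's quasi-likelihood F-test (TMM, filterByExpr) and Benjamini-Hochberg adjustment over all genes tested, called at 0.05. The genotype comparisons used 8 libraries each, and treatment used 14 w1118 libraries with experiment as covariate. A CMC and a mock library of one number come from one RNA sample, per the labels. Their deviations from the group means correlated across genes at 0.27 to 0.66 in Exp 2, but at 0.50, -0.24 and -0.15 in Exp 1. Log2 ratios of termination were compared with limma at positions listed in all 8 pairs of Exp 2 with coverage of at least 20 in both libraries of each. The z-test of a pair ran on the values as listed and required a listed value of 5 CMC terminations, which is 4 after the subtraction, and 5 reads continuing. It also required a CMC ratio above the mock ratio. Its Benjamini-Hochberg adjustment ran over the positions of a pair that met these conditions, and the numbers of tested positions and shares called refer to them only. Nothing says that replicates of a group were reared apart, so p-values measure the spread between these samples.

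The genes named in the text are the 3 members, of each list every gene past the threshold and up to 5, the 3 genes most like each member, and examples of list genes that did not pass, which were picked after their values were seen. The RefSeq table holds symbols but no identifiers of the count tables, so lists, markers and likeness were measured by CMC terminations in gene spans, where mock libraries had been planned. Spans can hold overlapping genes of one strand.

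In simulated counts for 9564 genes and the mock genotype comparison, edgeR called 74 of 100 genes changed by a log2 of 0.5, 99 of 100 changed by 1, and 6 others. The alternatives were DESeq2 and its size factors, library totals without TMM, no filter, a replicate block, single experiments, a pooled variance or 10 reads in the z-test, a coverage minimum of 50, other pseudocounts and each replicate left out. R 4.3.3 with edgeR 4.0.16, limma 3.58.1 and DESeq2 1.42.0, and Python 3.11 (SciPy 1.17.1, NumPy 2.4.6, pandas 2.3.3, matplotlib 3.10.9) were used.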

Additional observations from a re-analysis of the deposited data

Results flagged for a closer look

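The response of CaMKI to CMC treatment differed between the experiments in w1118. Its log2 fold change of CMC over mock was higher by 0.27 in Exp 2 than in Exp 1 (edgeR with pairs as a block, adjusted p = 0.0408), though the pairs of Exp 1 did not deviate together, and CPM was lower with CMC in 3 of 4 w1118 pairs of Exp 2 and in 3 of 3 of Exp 1.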

How the results depend on the processing

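Under all alternatives CaMKI kept its sign between the genotypes, with log2 fold changes of 0.31 to 0.38 in mock and 0.32 to 0.44 in CMC libraries. The alternatives are refits of the same libraries, and this contrast was known at the choice, so these values are a description. The genotypes share replicate numbers but not samples, and deviations of same-numbered libraries correlated at -0.01 to 0.27 (mock), with 3 of 8 libraries closest to their own number. With a replicate block 2319 genes were called in mock libraries (2409 without) and CaMKI gave 0.35, and the block changed no call of the 3 genes. Without TMM the share of called genes that were higher in RluA-2 was 35.1%, against 46.8%. For treatment, 1095 genes were called within Exp 2 and 1976 within Exp 1, against 3226 over both. CaMKI was called within Exp 1 (-0.30) and, among w1118 replicates left out, gave -0.19 to -0.11. CaMKII turned to 0.038 within Exp 2. The cause was not tested. With a pooled variance the CaMKI stop was called in 8 of 11 pairs, 1 of them RluA-2, against 5. Over the pairs 211 calls were made at other window positions, against 0. Over the genome that variance called 44196 of 639308 tested positions in RluA-2 replicate 2 and 199884 of 391012 in w1118 replicate 2 of Exp 1. Per 1000000 gene counts the window outside the stop is part of the CaMKI signal known at the choice, so it is described without a p-value. It differed by 16.6, and by 14.6 to 19.3 with a replicate left out. Per 1000 CaMKI counts it differed by -3.15, also without a p-value. Leaving out a pair moved the difference at the stop between -3.40 and -2.66. Coverage of 45 to 61 CMC inserts limits the Exp 1 shares at the stop.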
